A study of Mus musculus with 2 samples.

Results

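Translation initiation factors are the proteins that bring the initiator tRNA, the small ribosomal subunit and the mRNA together before the first peptide bond is made. Their genes were taken from both expression tables as the features named Eif1 to Eif6, without the eIF2 kinase genes Eif2ak1 to Eif2ak4 and without pseudogenes. The pattern took 55 of the 35522 features listed, and 50 of these reached 0.25 RPKM (mapped reads scaled to the length of the gene's exons and to library size) in both samples. Among the 50 are 4 genes, Eif2c1 to Eif2c4, which are older symbols of Argonaute genes, whose proteins bind microRNAs and are not initiation factors. They are described apart, and counts are given with and without them.

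RNA of murine neutrophils was sequenced after culture with PBS or with exosomes of sphere-derived cancer stem cells (SDCSCs), the spheroid-forming cells grown from the murine colon carcinoma line CT26 in a serum-free stem cell medium. The neutrophils came from bone marrow of Balb/C mice, bought at an age of 5 to 8 weeks, and were sorted as CD11b+ cells with high Ly6G and low or no Ly6C. Both cultures received the myeloid growth factor GM-CSF at 10 ng/ml and were treated for 3 days, one with PBS and one with exosomes at 20 μg/ml. There was 1 library per treatment, it is not stated whether animals were pooled, and no difference between the treatments could be tested. All differences below are therefore descriptions of these 2 libraries, without replicates.

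Initiation runs through a few multi-subunit complexes. eIF2 carries the initiator tRNA and is reloaded with GTP by eIF2B, a step that stops when the alpha subunit of eIF2 is phosphorylated. eIF3 is the scaffold on the small ribosomal subunit, and the eIF4 group binds the mRNA cap, unwinds the leader and links the mRNA to eIF3. Translation factors are needed in every cell, and mature neutrophils are known for a low content of RNA and ribosomes.

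Depth was estimated at 65.96 M mapped reads in PBS and 79.1 M with exosomes. Of the markers of the sorted cells, 8 of 8 neutrophil genes reached 0.25 RPKM in both libraries, Ly6g at 287 and 56.2 RPKM and Itgam (CD11b) at 313 and 393 RPKM. Their summed level was 80493 RPKM in PBS and 30513 RPKM with exosomes, and 6 of the 8 were at least 2-fold lower with exosomes. All 10 monocyte and macrophage markers, of which 6 reached 0.25 RPKM in both libraries, were higher with exosomes, 8 of them at least 2-fold, with sums of 164 and 461 RPKM. The 3 B cell markers summed to 70.6 and 44.6 RPKM and the 3 T cell markers to 57.7 and 7.17 RPKM. Nearly all of the T cell sum was Cd3d, at 56.4 and 7.02 RPKM. Cd3d was the only 1 of these 3 to reach 0.25 RPKM in both libraries, with Cd3e at 0.06 and 0.04 RPKM and Cd3g at 1.19 and 0.11 RPKM. Dendritic cell markers summed to 154 and 105 RPKM, proliferation markers to 6.33 and 5.05 RPKM, and epithelial markers to 0.590 and 0.196 RPKM. Krt8 was listed at 0 in both libraries. The part of these markers in the results below was not tested, and in a bulk sample fewer cells of a type and less RNA per cell cannot be told apart.

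Most initiation factor transcripts had a higher RPKM after exosome treatment, and the whole table was shifted the same way. RPKM is a share of the library, and S100a8 and S100a9 held 21.2% of the summed RPKM in PBS and 8.13% with exosomes. The part of this in the shift was not tested. Of the 50 genes kept, 26 were called up (2-fold or more above PBS) and 0 were called down (2-fold or more below PBS). Among all 9698 features kept, 31.5% were called up and 5.62% were called down. On the log2 scale the exosome to PBS ratio (the log2 fold change) had a median of 1.03 over the 50 genes, a ratio of 2.05, against 0.53 for all features kept. With this common shift of 0.53 subtracted, 8 of the 50 genes were up and 1, Eif2c4, was down, beside 16.8% and 13.2% of all features, so the share of members called up was then about that of the table, while their median remained 0.51 above it. Without the 4 Argonaute genes, 25 of 46 were called up and the median was 1.05. In all, 45 of the 50 genes had a ratio above 1, as did 73% of all features, and 38 had one above the median of the table. The 7 genes that change sign when the shift is subtracted are Eif2b2, Eif2c1, Eif2c2, Eif4a2, Eif4b, Eif4ebp1 and Eif4ebp2. A ratio of 1.5 was reached by 36 of the 50 genes and 47.3% of all features. Only Eif3b, Eif2s1, Eif2a and Eif3e among the genes kept exceeded a ratio of 4, a share of 4 in 50 that is close to the 8.52% of all features. The excess over the table thus lay at ratios under 4.

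**Figure D1:**
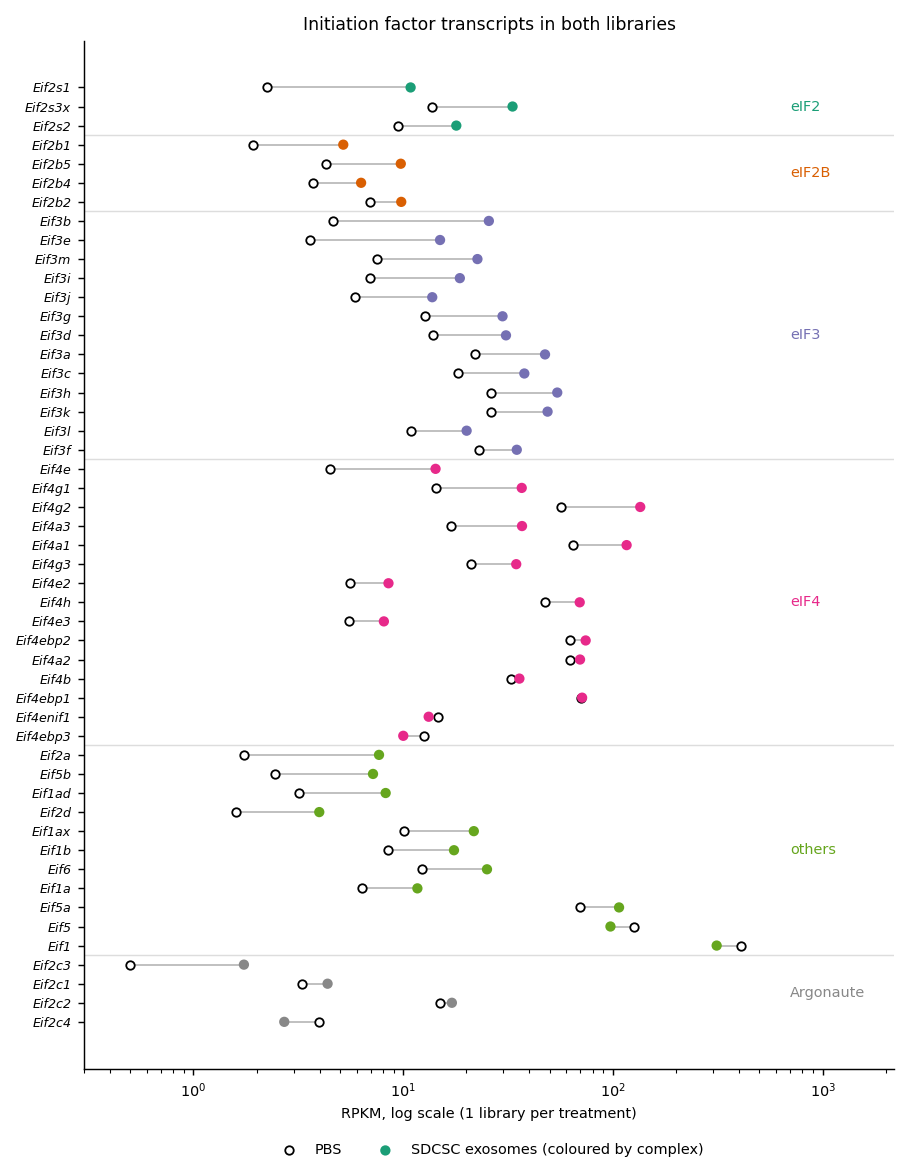
RPKM (log scale) of the 50 initiation factor and Argonaute genes kept, with an open circle for the PBS library and a filled circle, coloured by complex, for the exosome library. Filled circles stand to the right of open ones for 45 of the 50 genes, and 38 of the 50 remain to the right after the shift of all features is subtracted.

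Read as complexes, the genes fell into different ranges. eIF3 stood highest by share, with 10 of 13 genes called up, followed by eIF2 with 2 of 3, the remaining factors without Argonautes with 7 of 11, eIF2B with 2 of 4 and eIF4 with 4 of 15. The median log2 fold changes were 1.27 for eIF2, 1.16 for eIF3, 1.05 for the remaining factors, 0.97 for eIF2B and 0.56 for eIF4. With the Argonautes counted among them, as the pattern has it, 8 of 15 remaining factors were called up and their median was 1.02. The eIF4 median lay near the 0.53 of all features. These counts stand beside the 31.5% of all features, under which eIF4 lay with 26.7%. That share depends on level, and was 17.0% for features with a mean of 10 to 50 RPKM and 10.8% above that. Compared with features of like level, 9 of 15 eIF4 genes lay above the median, as described below. With the shift subtracted, 3 eIF3 genes, 1 eIF2 gene, 1 eIF4 gene, 0 eIF2B genes and 3 of the remaining genes (Eif2a, Eif5b and the Argonaute gene Eif2c3) were still called up, beside 16.8% of all features. These sets hold from 3 to 15 genes, and the differences between complexes were not tested.

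**Figure D2:**
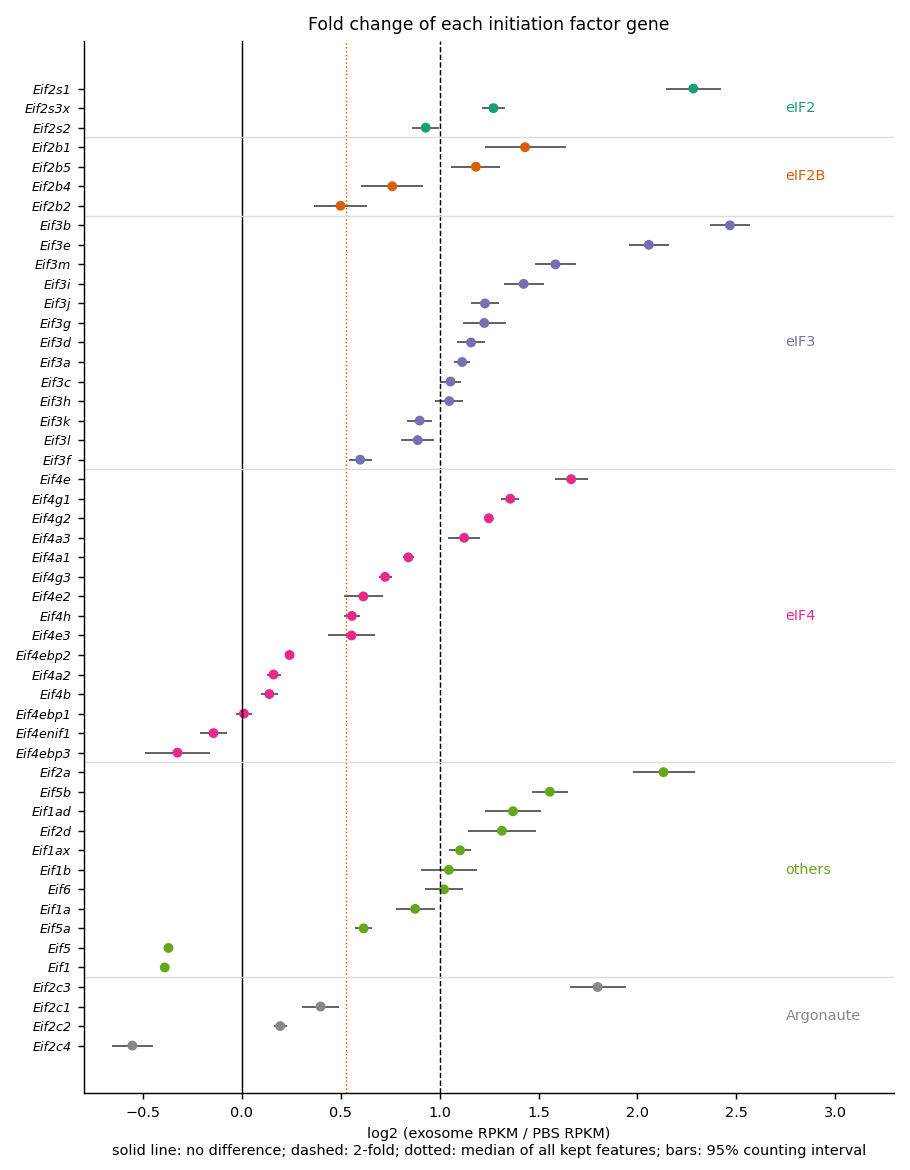
Log2 fold change (exosome over PBS) of each gene kept, ordered within its complex, with bars for the 95% counting interval. All 13 eIF3 genes lie to the right of the median of all features (dotted, 0.53), whereas 6 of the 15 eIF4 genes lie to its left.

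Among the 3 eIF2 genes kept, the alpha subunit gene differed most. Eif2s1 (chr12:78861819-78887010, plus strand, GENCODE M21 on GRCm38) encodes the subunit that carries the regulatory phosphorylation site. Its level was 2.23 RPKM in PBS and 10.85 RPKM with exosomes, a log2 fold change of 2.28 (95% counting interval 2.14 to 2.42, which covers counting error only). This places it above 94.6% of all features kept. Eif2s2, for the beta subunit, had 9.41 and 17.9 RPKM (log2 fold change 0.93, interval 0.86 to 0.997) and stayed just under the 2-fold limit. Eif2s3x, the X-linked gene for the GTP-binding gamma subunit, had 13.8 and 33.2 RPKM (log2 fold change 1.27). In PBS the gamma transcript was 6.17 times as abundant as the alpha transcript, and with exosomes 3.06 times. The Y-linked copy Eif2s3y was listed at 0 in both libraries, where 3 estimated reads would correspond to 0.0146 and 0.0122 RPKM.

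For eIF2B, the exchange factor of eIF2, the genes kept had a median of 4.0 RPKM in PBS and 8.0 RPKM with exosomes. Over all features kept the medians were 5.28 and 8.5 RPKM. The regulatory subunit gene Eif2b1 (alpha) had 1.92 RPKM in PBS and 5.18 RPKM with exosomes, a log2 fold change of 1.43 (interval 1.23 to 1.64). Eif2b5, for the catalytic epsilon subunit, had 4.29 and 9.74 RPKM (log2 fold change 1.18). The regulatory subunit genes Eif2b2 (beta) and Eif2b4 (delta) stayed within 2-fold, at 6.93 and 9.79 RPKM and at 3.72 and 6.30 RPKM. The gamma gene was the only one of the 5 that did not pass the filter. Eif2b3, which encodes the gamma subunit that forms the catalytic core with epsilon, had 0.17 RPKM in PBS, below the filter of 0.25, and 0.81 RPKM with exosomes. Its log2 ratio was 2.25, with a counting interval of 1.78 to 2.77 from about 42.1 and 241 estimated reads. It was thus the scarcest eIF2B transcript in both libraries.

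All 13 eIF3 genes listed were kept, and all had higher levels in the exosome library. The range was 3.6 to 26.25 RPKM in PBS and 13.8 to 54.3 RPKM with exosomes. Eif3b (chr5:140419328-140443360, plus strand), a scaffold subunit that joins the small subunits g and i, differed most of all initiation factors. It had 4.63 RPKM in PBS and 25.6 RPKM with exosomes, a log2 fold change of 2.47 with an interval of 2.37 to 2.57, above 96.1% of all features kept. Its partners Eif3i and Eif3g had 6.94 and 18.6 RPKM (log2 fold change 1.42) and 12.7 and 29.8 RPKM (log2 fold change 1.23). The 3 genes of this module therefore did not share one ratio.

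The core of eIF3 is an octamer of subunits with PCI or MPN domains, which are folds shared with the proteasome lid and the COP9 signalosome. Among its genes, Eif3e (chr15:43250058-43282719, minus strand) and Eif3m showed the larger differences. Eif3e had 3.6 and 14.99 RPKM (log2 fold change 2.06, interval 1.96 to 2.16) and Eif3m had 7.53 and 22.6 RPKM (log2 fold change 1.59). The large subunit genes Eif3a and Eif3c had log2 fold changes of 1.11 and 1.05, at 21.9 and 47.5 RPKM and at 18.2 and 37.8 RPKM. Eif3h had 26.25 and 54.3 RPKM, and its counting interval of 0.98 to 1.12 included the 2-fold limit. Eif3k, Eif3l and Eif3f stayed below that limit, with log2 fold changes of 0.90, 0.89 and 0.60. Outside the octamer, the cap-contacting subunit gene Eif3d had 13.85 and 30.9 RPKM (log2 fold change 1.16). Eif3j, for the loosely bound subunit near the decoding site, had 5.87 and 13.8 RPKM (log2 fold change 1.23). The mouse has a pair of near-identical genes for subunit j, the file lists only Eif3j, and how shared reads were assigned is not stated.

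Within eIF2, eIF2B and eIF3 the transcript levels stood closer together with exosomes than with PBS. In eIF3 the most abundant subunit transcript was 7.29 times the least abundant in PBS and 3.95 times with exosomes, and the SD of log2 RPKM over the 13 genes was 0.98 and 0.65. For the 3 eIF2 genes the same spans were 6.17 and 3.06 times, and for the 4 eIF2B genes kept 3.61 and 1.89 times. The 15 eIF4 genes, which are not subunits of one complex, spanned 15.7 and 16.7 times. The 11 remaining factors without Argonautes, which are not one complex either, spanned 256 and 78.5 times, and the 4 Argonaute genes 29.9 and 9.81 times. Closer levels with exosomes were therefore not particular to subunits of one complex. Over all features kept the SD of log2 RPKM was 2.49 in PBS and 2.24 with exosomes, so the whole table narrowed as well. In eIF3 the lower transcripts had the larger ratios, with a Spearman rho of -0.77 between log2 fold change and mean level over 13 genes of the same 2 libraries, against -0.28 over all features kept. The rho was -0.36 over the 8417 features in the members' range of mean RPKM, and -0.53 over the 46 factor genes without Argonautes. Ratio and mean level are made from the same values, and the correlation is given as a description.

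**Figure D3:**
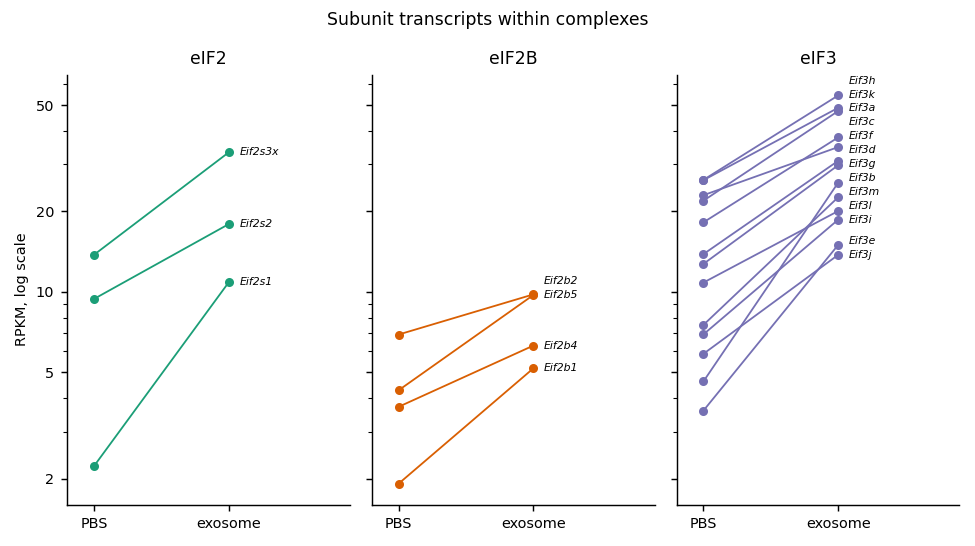
RPKM (log scale) of the subunit genes of eIF2, eIF2B and eIF3 that were kept, with 1 line per gene from the PBS to the exosome library. The lines end closer together than they start, and the span in eIF3 goes from 7.29 times to 3.95 times.

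In the eIF4 group the genes called up were Eif4e, Eif4g1, Eif4g2 and Eif4a3. Eif4e (chr3:138526179-138559696, plus strand), which encodes the cap-binding protein, had 4.50 RPKM in PBS and 14.3 RPKM with exosomes, a log2 fold change of 1.66 with an interval of 1.58 to 1.75. Its relatives Eif4e2, whose product binds caps but represses translation, and Eif4e3 stayed within 2-fold, with log2 fold changes of 0.61 and 0.55. Of the scaffold genes, Eif4g1 had 14.35 and 36.8 RPKM (log2 fold change 1.36). Eif4g2, whose product lacks the eIF4E-binding part, had 56.8 and 135 RPKM (log2 fold change 1.25). Eif4g3 had 20.95 and 34.6 RPKM (log2 fold change 0.72). Eif4g3 was the more abundant of Eif4g1 and Eif4g3 in PBS, at 1.46 times, and the less abundant with exosomes, at 0.941 times.

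The RNA helicase eIF4A is encoded by a pair of close paralogs. Eif4a1 and Eif4a2 were nearly equal in PBS, at 64.9 and 62.4 RPKM, and stood at 116 and 69.7 RPKM with exosomes, so their ratio went from 1.04 to 1.67. Eif4a3, whose product acts in the exon junction complex rather than in cap binding, had 16.9 and 36.9 RPKM and was called up (log2 fold change 1.12). The helicase cofactor genes Eif4b and Eif4h had log2 fold changes of 0.14 and 0.56, of which the first turns negative with the shift subtracted. None of Eif4a1, Eif4a2, Eif4b and Eif4h reached the 2-fold limit.

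The eIF4E-binding proteins sequester eIF4E until mTOR phosphorylates them. Eif4ebp1 had 70.8 RPKM in PBS and 71.3 RPKM with exosomes, and its counting interval of -0.03 to 0.05, which covers counting error only, included 0. With the shift of all features subtracted, its log2 fold change was -0.52. Eif4ebp2 had 62.8 and 74.2 RPKM (log2 fold change 0.24) and Eif4ebp3 had 12.55 and 10.01 RPKM (log2 fold change -0.33). Eif4enif1, for the eIF4E transporter, had 14.6 and 13.2 RPKM. The summed RPKM of the 3 binding protein genes was 32.5 times that of Eif4e in PBS and 10.9 times with exosomes, a quantity of RNA that says nothing of protein or phosphorylation. Without these 4 genes and Eif4a3, the eIF4 median was 0.67, with 3 of 10 genes called up.

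The remaining factors act at start-codon choice, subunit joining and reading. Eif2a (chr3:58525821-58557501, plus strand), which encodes a single-chain factor able to deliver initiator tRNA and is not a subunit of eIF2, had 1.75 and 7.67 RPKM (log2 fold change 2.13, interval 1.98 to 2.29). Eif2d, for another such tRNA-delivering factor, had 1.6 and 3.98 RPKM (log2 fold change 1.31). Eif5b, for the GTPase that joins the ribosomal subunits, had 2.44 and 7.18 RPKM (log2 fold change 1.56). Eif6, which keeps the large subunit from joining too early, had 12.4 and 25.1 RPKM, and its interval of 0.93 to 1.12 included the 2-fold limit. Eif1ad, named for a domain like that of eIF1A, had 3.19 and 8.25 RPKM (log2 fold change 1.37).

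The factor genes most abundant in PBS had ratios below 1. Eif1 (chr11:100319885-100322096, plus strand), which guards start-codon choice, had 409.7 RPKM in PBS and 313 RPKM with exosomes, a log2 fold change of -0.39 with an interval of -0.41 to -0.37. Eif5 (chr12:111538016-111546752, plus strand), for the GTPase activator of eIF2, had 126 and 97.4 RPKM (log2 fold change -0.37, interval -0.39 to -0.35). Neither reached a ratio of 0.5. Eif1b, the paralog of Eif1, had 8.46 and 17.5 RPKM (log2 fold change 1.05, with an interval of 0.90 to 1.19 that included the 2-fold limit), and Eif1 exceeded it 48.4 times in PBS and 17.9 times with exosomes. The scanning factor genes Eif1a and Eif1ax had log2 fold changes of 0.88 and 1.10. Eif5a, whose product carries the modified residue hypusine and helps the ribosome through difficult stretches, had 69.9 and 107 RPKM (log2 fold change 0.62), and its paralog Eif5a2 had 0.16 and 0.34 RPKM and was not kept. The summed RPKM of all 50 genes, to which Eif1 gave the largest part, was 1391 RPKM in PBS and 1873 RPKM with exosomes, a ratio of 1.35.

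Of the Argonaute genes listed under older Eif symbols, Eif2c3 (Ago3) had 0.5 and 1.74 RPKM and was called up (log2 fold change 1.80). Eif2c1 (Ago1) and Eif2c2 (Ago2), the latter encoding the Argonaute that cleaves its targets, had log2 fold changes of 0.40 and 0.19. Eif2c4 (Ago4) had 3.98 and 2.71 RPKM (log2 fold change -0.55), the lowest value of the 50 genes. The median of the 4 genes was 0.30, below the 0.53 of all features. Eif2c5 and the oocyte form Eif4e1b were listed at 0 in both libraries. With Eif2s3y, Eif2b3 and Eif5a2 these make up the 5 genes not kept. The gene kept with the lowest value was Eif2c3, and Eif2b3 and Eif5a2 stood just outside the filter.

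The comparison with all features depends on the level of expression. Among 2924 features with a geometric mean of both samples from 1 to 5 RPKM, the median log2 fold change was 0.99, and among 1057 features at 50 RPKM or more it was 0.02. The members' medians stood above these in the 4 ranges from 1 RPKM upward. Below 1 RPKM the only member was the Argonaute gene Eif2c3. From 1 to 5 RPKM the 8 members had a median of 1.37, and from 5 to 10 RPKM the 9 members had 1.18 against 0.63. From 10 to 50 RPKM the 23 members had 1.05 against 0.29, and from 50 RPKM the 9 members had 0.24. Of the 50 genes, 37 lay above the median of their own range (36 of 46 without the Argonautes), where 50% of all features lie by construction. All 13 eIF3 genes and all 3 eIF2 genes did so, with median excesses of 0.82 and 0.98 on the log2 scale, as did 9 of 15 eIF4 genes (0.22) and 2 of 4 eIF2B genes (0.15). The calls of the lowest genes, such as Eif2b1 and Eif2d, thus belong to a range in which 49.8% of all features were called up, whereas those of Eif3a, Eif3d or Eif4g1 belong to one in which 17.0% were.

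**Figure D4:**
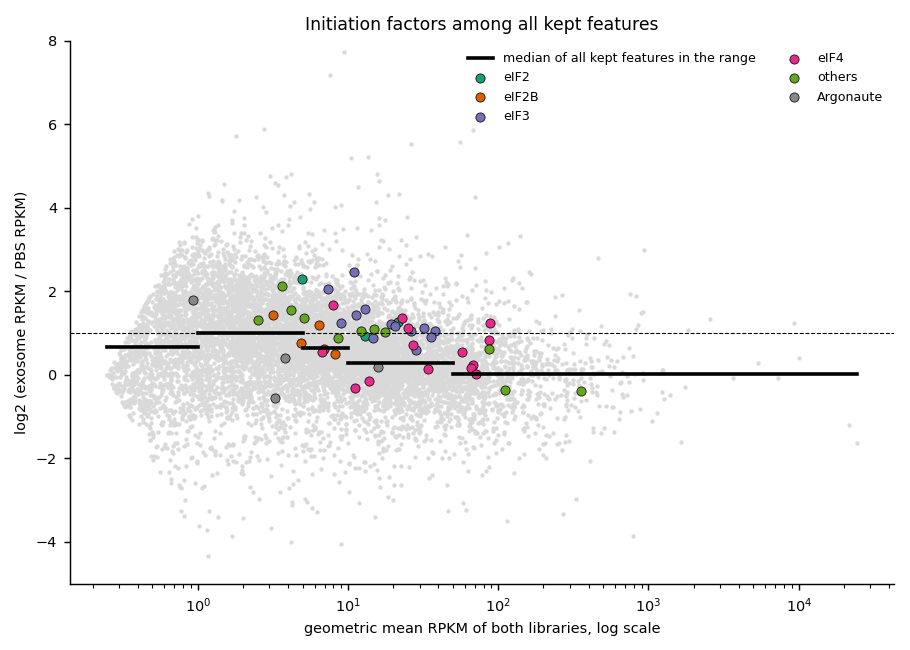
Log2 fold change against the geometric mean RPKM of both libraries (log scale) for all 9698 features kept (grey) and the 50 genes (coloured by complex), with black lines for the median of all features in each range and a dashed line at 2-fold. The black line drops from 0.99 between 1 and 5 RPKM to 0.02 at 50 RPKM or more, and all eIF3 points lie above it.

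The sequences before the transcription start are shown for the leading genes, because members that differed together can be compared by their promoters. RefSeq promoters on GRCm38.p6 were found for 37 of the 46 factor genes. Over the 250 bases before the start, 5 short motifs were searched on both strands: the E-box CACGTG bound by Myc and its relatives, the ETS core CGGAAG, the CRE part TGACGT, the GC box GGGCGG and the NRF1 part GCGCATG. Neighbouring matches can share end letters. Matches stand in capitals. The table gives 1 start per gene, which can differ from the GENCODE start: the windows of Eif2s1 and Eif4g1 lie wholly inside the GENCODE gene span, and those of Eif1, Eif4e and Eif5 reach into it. Shown are 3 of the genes above a ratio of 4 (Eif3b, Eif2s1, Eif2a), the cap-binding gene Eif4e, the scaffold gene Eif4g1, and Eif1 and Eif5, whose ratios were below 1. Eif3e, also above a ratio of 4, is not shown.
Eif3b (chr5:140419055-140419304, plus strand): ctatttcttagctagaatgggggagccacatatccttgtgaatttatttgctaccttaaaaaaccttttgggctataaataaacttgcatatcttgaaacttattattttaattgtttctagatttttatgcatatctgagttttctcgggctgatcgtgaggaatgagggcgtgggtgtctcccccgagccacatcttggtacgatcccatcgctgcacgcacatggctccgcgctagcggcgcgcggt
Eif2s1 (chr12:78861822-78862071, plus strand): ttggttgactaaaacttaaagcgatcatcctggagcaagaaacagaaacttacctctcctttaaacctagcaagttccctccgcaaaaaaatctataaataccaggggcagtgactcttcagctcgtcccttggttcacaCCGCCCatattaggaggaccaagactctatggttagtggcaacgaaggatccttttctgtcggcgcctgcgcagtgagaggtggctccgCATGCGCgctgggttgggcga
Eif2a (chr3:58525571-58525820, plus strand): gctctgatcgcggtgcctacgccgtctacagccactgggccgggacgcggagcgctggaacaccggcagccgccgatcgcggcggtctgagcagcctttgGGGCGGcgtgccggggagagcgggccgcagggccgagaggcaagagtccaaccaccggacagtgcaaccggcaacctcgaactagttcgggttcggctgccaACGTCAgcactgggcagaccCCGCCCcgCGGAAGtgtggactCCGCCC
Eif4e (chr3:138525941-138526190, plus strand): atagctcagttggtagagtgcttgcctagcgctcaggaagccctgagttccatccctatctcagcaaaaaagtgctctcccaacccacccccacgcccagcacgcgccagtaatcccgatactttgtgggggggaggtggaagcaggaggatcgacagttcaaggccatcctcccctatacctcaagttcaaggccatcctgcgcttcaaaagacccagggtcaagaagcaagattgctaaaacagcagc
Eif4g1 (chr16:20672477-20672726, plus strand): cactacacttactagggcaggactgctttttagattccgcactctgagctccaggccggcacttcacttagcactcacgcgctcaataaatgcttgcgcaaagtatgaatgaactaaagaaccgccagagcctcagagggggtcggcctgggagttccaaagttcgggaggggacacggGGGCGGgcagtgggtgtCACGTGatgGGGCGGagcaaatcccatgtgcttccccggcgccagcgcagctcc
Eif1 (chr11:100319699-100319948, plus strand): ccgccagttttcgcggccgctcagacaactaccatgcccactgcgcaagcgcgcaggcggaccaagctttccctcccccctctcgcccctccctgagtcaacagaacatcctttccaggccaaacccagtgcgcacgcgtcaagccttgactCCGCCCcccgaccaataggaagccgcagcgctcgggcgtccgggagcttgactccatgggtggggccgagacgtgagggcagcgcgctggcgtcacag
Eif5 (chr12:111537851-111538100, plus strand): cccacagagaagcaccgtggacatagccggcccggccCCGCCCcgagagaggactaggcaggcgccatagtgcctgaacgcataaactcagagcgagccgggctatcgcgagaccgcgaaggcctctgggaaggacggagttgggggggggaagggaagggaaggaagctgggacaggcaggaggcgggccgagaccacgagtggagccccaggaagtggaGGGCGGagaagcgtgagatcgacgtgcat
Eif3b had none of these motifs in a window of 44.8% G or C, Eif2s1 had 1 GC box and 1 NRF1 part, and Eif2a had 3 GC boxes, 1 ETS core and 1 CRE part at 70.8% G or C. Eif4e had none, Eif4g1 had an E-box between 2 GC boxes, while Eif1 and Eif5 had GC boxes alone, 1 and 2 in number. Eif2s1 and Eif2a thus shared the GC box, the most common of these motifs in the table.

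Over the 37 promoters, the GC box was found in 27 (73.0%), against 60% of the promoters of features kept and 32.9% of all 27025 promoters. The ETS core was found in 15 (40.5%, against 28.6% and 13.8%), the E-box in 6 (16.2%, against 8.90% and 6.05%), the CRE part in 6 (16.2%, against 10.9% and 6.56%) and the NRF1 part in 5 (13.5%, against 6.37% and 3.32%). The ETS core stood before 10 of 20 genes called up and 5 of 17 within 2-fold, and the E-box before 2 of 20 and 4 of 17. Their median G or C content was 59.2%, close to the 60% of features kept. These counts are descriptions and were not tested, and a match is not a bound site.

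Many mRNAs of the translation machinery begin with a C and a run of pyrimidines, the 5′ terminal oligopyrimidine (TOP) tract through which mTOR regulates their translation. A start with C and at least 4 further pyrimidines at the annotated position was found for 2 of the 37 genes (5.41%), against 2.35% of features kept. Both are shown with 10 bases before and 20 after the start and the pyrimidine run in capitals.
Eif3f (chr7:108934405-108934434, plus strand): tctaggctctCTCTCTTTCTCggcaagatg
Eif2s3x (chrX:94212632-94212661, minus strand): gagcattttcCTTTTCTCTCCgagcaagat
Each run was 11 bases long. Eif3f had the smallest log2 fold change of the eIF3 genes (0.60) and Eif2s3x was called up (1.27), so this start did not go with one ratio. The Eif3f stretch holds the GENCODE start at 108934417. The Eif2s3x stretch lies wholly inside the GENCODE gene span, which ends at 94212862, so its pyrimidine run rests on the RefSeq start alone.

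Partner genes of initiation from outside the list were taken from 5 lists of 46 genes, of which 45 were kept. Of these, 13 (28.9%) were called up and 3 (6.67%) were called down, close to the 31.5% and 5.62% of all features, with a median log2 fold change of 0.46. Among 8 genes that set eIF2 phosphorylation, 1 was called up and 2 down. Eif2ak2, the interferon-inducible kinase PKR, had 1.71 and 7.78 RPKM (log2 fold change 2.19). Eif2ak3, the endoplasmic reticulum stress kinase PERK, had 40.6 and 11.9 RPKM (log2 fold change -1.77), and Impact, an inhibitor of the kinase GCN2, had 21.2 and 8.17 RPKM (log2 fold change -1.37). The kinase genes of eIF2 thus differed in both directions, and Eif2ak1 and Eif2ak4 stayed within 2-fold, with log2 fold changes of 0.48 and 0.77.

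Of 13 mTOR and eIF4 regulators 4 (30.8%) were called up and 0 down, near the 31.5% of all features. Rptor, which encodes the substrate-binding part of mTOR complex 1, had 0.41 and 2.59 RPKM (log2 fold change 2.66, interval 2.43 to 2.90). Of 12 poly(A) and ribosome recycling partners kept, 4 (33.3%) were called up, among them Abce1, which splits ribosomes after termination, at 2.78 and 14.3 RPKM (log2 fold change 2.37). For hypusination of eIF5A, 1 of 2 genes was called up. Of 10 elongation and release genes 3 (30%) were called up and 1 down, so these 3 lists lay near the share of the table. Eef1e1, for a scaffold protein of the synthetase complex, had 0.73 and 5.25 RPKM (log2 fold change 2.85). Eef2k, the kinase that inhibits elongation factor 2, had 4.47 and 0.42 RPKM (log2 fold change -3.41, interval -3.62 to -3.21), the lowest value of the partner genes.

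**Figure D5:**
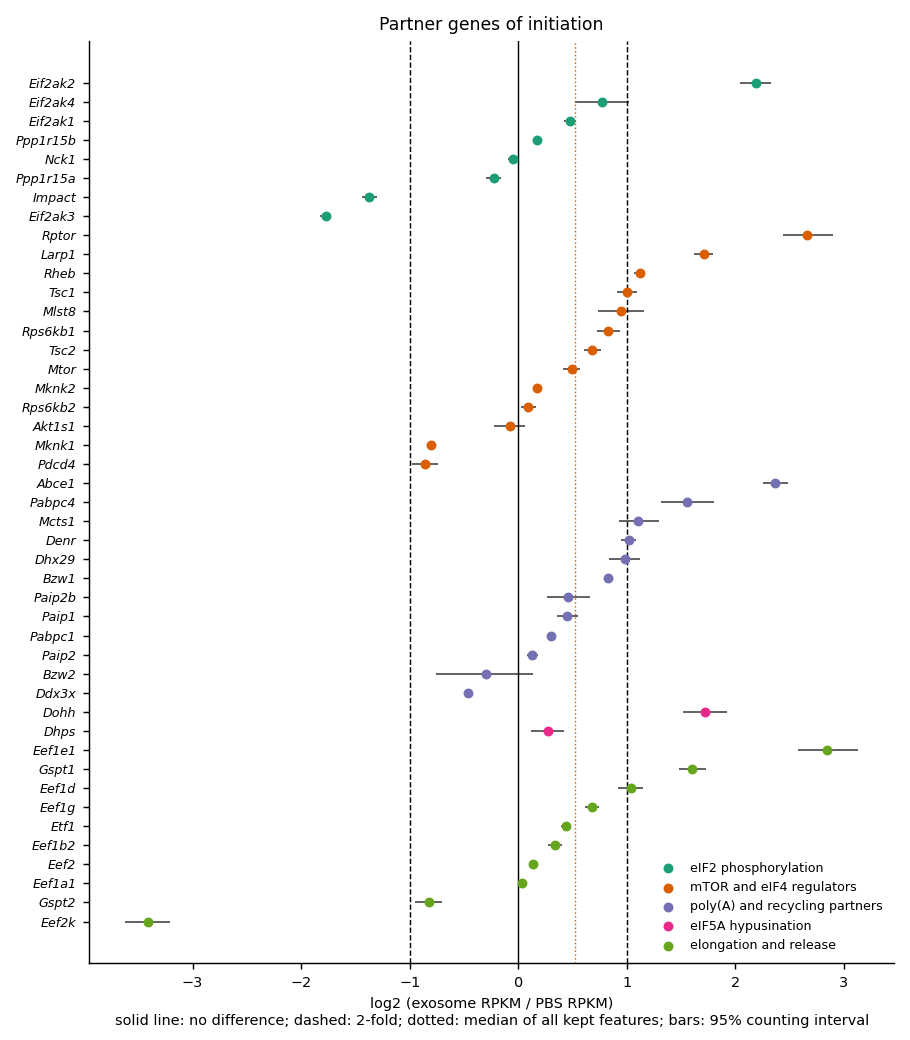
Log2 fold change (exosome over PBS) of the 45 partner genes kept, coloured by list, with bars for the 95% counting interval, dashed lines at 2-fold and a dotted line at the median of all features. Points spread on both sides of 0, from -3.41 for Eef2k to 2.85 for Eef1e1.

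Beside related families, the factors without Argonautes (54.3% called up, median 1.05) stood between 28 aminoacyl-tRNA synthetase genes (57.1%, median 1.09) and 74 cytosolic ribosomal protein genes (40.5%, median 0.89). In none of these 3 families was a gene called down. Among all features kept, 31.5% were called up and 5.62% were called down, with a median of 0.53. These families differ in level, with PBS medians of 3.65 RPKM for the synthetases, 12.5 for the factors and 63.6 for the ribosomal proteins. Against the median of each gene's own level range the order was reversed. The median excess was 0.69 for the ribosomal proteins (66 of 74 genes above), 0.60 for the factors (36 of 46) and 0.47 for the synthetases (19 of 28). The synthetase set was taken by symbol, with cytosolic and mitochondrial genes together, and the pattern does not take Eprs, Farsa or Farsb. The differences among the families were not tested.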

How the data were processed

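Poly(A) RNA libraries (TruSeq) were sequenced on a HiSeq system. Low-quality bases were trimmed and the reads were processed in CLC Genomics Workbench by the authors, and the deposited tables give 1 RPKM per feature and sample. The submitters' processing notes name the build mm10. The annotation, the treatment of shared reads and any scaling between samples are not given in the sources used here. Values of 0.01 or more carry 2 decimals.

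Features with at least 0.25 RPKM in both samples were kept, and ratios of at least 2 or at most 0.5 were called, with no pseudocount. With 1 library per treatment no test was made. Depth was estimated from values below 0.01 RPKM, many of which stand for 1 read, with the longest GENCODE M21 transcript of each symbol as length (which need not be the authors' exon model): 294 of 918 features in PBS and 338 of 1064 with exosomes gave the depth stated. Exact Clopper-Pearson intervals of the estimated reads (95%) cover counting error only. Older symbols were matched through RefSeq synonyms, and all 50 genes kept had a length. Scripts were tested on simulated reads. The result of 1 marker list is not reported here.

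The members and lists were chosen with earlier results of these data known. All members are named. Of the partner genes, those with a ratio of at least 4 or at most 0.5 are named. The motifs were chosen after the values were seen. Alternatives were 4 other scalings, an RPKM of at least 1, a pseudocount of 0.25 or 1, and ratios of 1.5 and 4. Python 3.11.15, pandas 2.3.3 and SciPy 1.17.1 were used.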

Additional observations from a re-analysis of the deposited data

How the results depend on the processing

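Each setting was changed alone, except that the filter on either sample went with a pseudocount of 0.25. Of 124 recomputed values, 52 moved and 72 stayed the same, and those that moved are among the values given below. A count was taken as the same within 1.5 times, and a median within the typical counting error of a single gene. Centring removed most calls. With the median of all features subtracted, 8 of 50 genes were up (all features: 16.8%) and 1 down (all features: 13.2%). By set, 1, 0, 3, 1 and 3 were up in eIF2, eIF2B, eIF3, eIF4 and the others. The medians were then 0.51 for all members and 0.75, 0.45, 0.63, 0.030 and 0.50 for these sets. With a trimmed mean of log ratios subtracted, the counts were 8 up (all features: 16.4%) and 1 down (all features: 13.6%). By set, 1, 0, 3, 1 and 3 were up, and the medians were 0.49 and 0.73, 0.43, 0.62, 0.015 and 0.48. With the median of the level range subtracted, 10 were up (all features: 13.6%) and 1 down (all features: 13.7%). Those up were 1 in eIF2, 0 in eIF2B, 4 in eIF3, 3 in eIF4 and 2 in the others. The medians were 0.60 and 0.98, 0.15, 0.82, 0.22 and 0.56. The gene down was Eif2c4 in these 3 settings, and 7, 7 and 8 of the 50 genes changed sign.

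With at least 0.25 RPKM in either sample and a pseudocount of 0.25, the medians of eIF2B, which then includes Eif2b3, and of the others were 1.14 and 0.93. A pseudocount of 1 left 22 of 50 genes up (all features: 20.4%), 4 of them among the others. It gave medians of 0.91 for all members, 0.83 for eIF2B and 0.87 for the others. A ratio of 4 left 4 of 50 genes up (all features: 8.52%), with 1, 0, 2, 0 and 1 by set. A ratio of 1.5 gave 7 of 15 in eIF4, near the 47.3% of all features. Without the binding proteins, Eif4enif1 and Eif4a3 the eIF4 median was 0.67. Leaving out the Argonaute genes was added after seeing the data. No paired analysis was possible because each treatment had 1 library, and for the same reason no replicate could be left out.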
